A study of Homo sapiens with 16 samples.

Results

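The genes described here encode TRAIL (TNFSF10), the receptor FAS and the receptors, adaptors and proximal regulators through which death ligands signal. They are 10 genes in all: TNFSF10, FAS, TRADD, TNFRSF10A, TNFRSF10B, TNFRSF1A, FADD, CASP8, CFLAR and TNFRSF21. Every probe set that the platform annotation maps to exactly 1 of these symbols was taken, whatever its value. On the U133A array this gave 30 probe sets of 22283, for 9 genes of 11963. The older U95 array type gave 19 probe sets of 12626, again for 9 genes. TNFRSF10A had no probe set listed under that symbol alone and was not analysed here.

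Messenger RNA was measured in OVCAR3, an established human ovarian carcinoma line, on Affymetrix oligonucleotide arrays. Cells received ethanol vehicle alone, or 1,25-dihydroxyvitamin D3, the active hormone made from vitamin D and written 1,25(OH)2D3 here, at a stated 0.1 pM for 8, 24 or 72 h. The hormone was added at staggered times so that cultures were collected together, and ethanol exposure was equal in all of them. The 12 U133A arrays held 3 arrays in each of the 4 groups, from 3 independent experiments, and an initial set of 4 U95 arrays held 1 array per group. All results are from 1 cell line in culture, at the RNA level.

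Death ligands of the tumour necrosis factor family bind receptors whose cytoplasmic death domain recruits adaptors. FAS and the TRAIL receptors recruit FADD, which gathers and activates caspase 8 (CASP8), while CFLAR, a caspase-like protein, competes with caspase 8 in that complex. TNFRSF1A, the main receptor for tumour necrosis factor, recruits TRADD, through which the signal can turn towards NF-kappaB or towards FADD and caspase 8. TNFRSF21 is a further receptor with a death domain. Ovarian carcinoma cells are known to vary in their sensitivity to TRAIL and to FAS ligand.

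The stretches upstream of TNFSF10 and FAS are shown because these members passed the F test over the 3 comparisons with vehicle. It is called the F test of any time below. They are the 250 bases before a gene start of the RefSeq promoter table on GRCh38.p14, printed 5′ to 3′ in the direction of the gene. The TNFSF10 window is chr3:172523431-172523680 on the minus strand, and the FAS window is chr10:88990548-88990797 on the plus strand, before the most upstream of the 3 starts listed for FAS. The annotated TNFSF10 gene spans chr3:172505508-172523430 and FAS spans chr10:88964050-89017059, so that this FAS start lies within the annotated gene. Capitals mark, in TNFSF10, GAAA followed after any 2 bases by GAAA on the opposite strand (TTTCAGTTTC as printed), and TGANTCA in FAS.
TNFSF10: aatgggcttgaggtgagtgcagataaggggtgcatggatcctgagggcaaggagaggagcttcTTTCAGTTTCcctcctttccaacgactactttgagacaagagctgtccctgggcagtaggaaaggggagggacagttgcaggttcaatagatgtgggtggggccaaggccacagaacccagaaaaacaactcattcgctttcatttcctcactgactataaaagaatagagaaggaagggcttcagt
FAS: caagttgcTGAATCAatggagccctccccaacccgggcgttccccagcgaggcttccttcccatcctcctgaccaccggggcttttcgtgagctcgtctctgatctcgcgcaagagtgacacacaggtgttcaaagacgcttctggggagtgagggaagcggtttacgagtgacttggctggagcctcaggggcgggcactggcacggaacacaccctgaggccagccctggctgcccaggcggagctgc

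Motifs were searched by their letters on both strands of the windows. GAAA with any 2 bases before a further GAAA, the core letters of an interferon-stimulated element, lay 187 to 178 bases before the TNFSF10 start, and 3.02% of 35116 windows of the same length hold it. TGANTCA, the letters of an AP-1 element, lay 242 to 236 bases before the FAS start, and 6.57% of the windows hold it. GGG and CC with any 5 bases between them, the outer letters of an NF-kappaB element, were in both windows and in 54.4% of all, while GGGCGG was in the FAS window and in 42.6% of all. The DR3 consensus, a direct repeat with a spacer of 3 bases of the kind to which the vitamin D receptor binds, was in neither window and in 0.0655% of all. The listed matches did not overlap one another, except that the NF-kappaB letters were found more than once over the same FAS stretch. These matches describe the letters in these windows and are not binding sites.

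Values below are MAS5 signals, a linear intensity per probe set, and log2 changes were taken on log2(signal + 15.8). A gene was represented by its probe set with the highest mean, genes with a mean signal under about 169 were left out, and 7178 genes were tested together with limma. Adjusted p-values (Benjamini-Hochberg, threshold 0.05) cover all of these genes. All 9 genes on the array passed that filter, with 21 of their 30 probe sets. Median signals per array lay between 168 and 196, and pairs of arrays correlated at 0.958 to 0.976 over all probe sets. The response to the hormone was visible on every treated array: CYP24A1, which inactivates the hormone, had signals of 5177 to 8808 with hormone and of 56.4 to 247 with vehicle, and GADD45A, a DNA damage response gene, had 1236 to 2220 with hormone and 403 to 571 with vehicle. The 6 epithelial and 5 ovarian carcinoma markers examined were all above the filter. None of the 3 leukocyte or 3 endothelial markers on the array was above it, and 2 of 5 fibroblast markers, COL1A1 and DCN, were. The summed signal of the leukocyte markers was 144 to 293 on the vehicle arrays, 101 to 337 at 8 h, 92.8 to 146 at 24 h and 169 to 293 at 72 h, ranges that overlapped between vehicle and each time.

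With 1,25(OH)2D3, TNFSF10 rose at all 3 times, FAS fell at 24 and 72 h, and TRADD rose at 72 h. No other member passed the test at any time. At 8 h, 1 of the 9 members was higher and 0 lower, where 0.711% of all genes tested were higher, 0.0557% lower and 0.766% changed in either direction. At 24 h, 1 member was higher and 1 lower, against 2.45% and 1.62% of all genes (4.07% in either direction). At 72 h, 2 members were higher and 1 lower, against 3.86% and 2.98% of all genes (6.84% in either direction). The members, and the pathway lists below, were chosen with earlier results of these data known. Their counts beside these shares are therefore a description and not a test of the list. The median log2 change over the 9 members was 0.02 at 8 h, -0.06 at 24 h and -0.04 at 72 h, and over all genes tested it was -0.0040, -0.02 and -0.01. Of the 9 changes, 5 were positive at 8 h, 4 at 24 h and 4 at 72 h, so the members did not share a direction. At an unadjusted limma p under 0.05, 2 of the 9 members were counted at 8 h, 3 at 24 h and 4 at 72 h, all of them among TNFSF10, FAS, TRADD and TNFRSF1A. Of all genes tested, 6.38% were counted at 8 h, 14.4% at 24 h and 20.1% at 72 h by the same rule.

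TNFSF10, the ligand TRAIL (gene ID 8743), was the only member that passed the test at 8 h, the first time sampled. Its probe set 202688_at had signals of 141, 122 and 53.9 on the vehicle arrays, 304, 297 and 294 at 8 h, 277, 320 and 280 at 24 h, and 213, 244 and 296 at 72 h. Every treated array was above every vehicle array, and the widest spread was among the vehicle arrays, with replicate 3 the lowest. In cultures of this kind, more RNA per cell and more cells that express the gene cannot be told apart.
The mean was 299 ± 5.24 at 8 h against 106 ± 45.8 with vehicle (SD, n = 3 each), a log2 change of 1.46 (SE 0.25, 95% interval 0.93 to 1.98, limma adjusted p = 0.0063). At 24 h the mean was 292 ± 23.9 (SD, n = 3), with a log2 change of 1.42 (SE 0.25, limma adjusted p = 0.0024). At 72 h it was 251 ± 42.0 (SD, n = 3), with a log2 change of 1.21 (SE 0.25, limma adjusted p = 0.0060). These changes correspond to 2.74-fold at 8 h, 2.68-fold at 24 h and 2.31-fold at 72 h on the signal + 15.8 scale, and the F test of any time gave an adjusted p of 0.0030.
The differences between times did not pass, each with an SE of 0.25: -0.03 at 24 h against 8 h (95% interval -0.56 to 0.49), -0.22 at 72 h against 24 h (95% interval -0.74 to 0.31) and -0.25 at 72 h against 8 h (95% interval -0.77 to 0.28). The vehicle mean lay under the filter level, so the gene entered the test through its treated arrays, but with no filter it still passed at each time (adjusted p = 0.027, 0.010 and 0.019). Without vehicle replicate 3 the log2 change was 1.10 at 8 h, 1.07 at 24 h and 0.85 at 72 h, and it passed at each.

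The other TNFSF10 probe sets were below the filter and were not tested. Probe set 214329_x_at had signals of 96.6, 78.9 and 110.3 on the vehicle arrays, 205, 205 and 151 at 8 h, 143, 199.5 and 133.1 at 24 h, and 168, 160 and 211 at 72 h. Every treated array was again above every vehicle array. Probe set 202687_s_at had 59.6, 116 and 73.2 with vehicle, 144, 220 and 106 at 8 h, 148, 141 and 138 at 24 h, and 73.6, 159 and 170 at 72 h, and it was clear of the vehicle arrays at 24 h only. Their log2 differences from vehicle were smaller than those of 202688_at, between 0.57 and 0.87. The mean of the 3 probe sets changed by 1.04 at 8 h, 0.93 at 24 h and 0.87 at 72 h on the log2 scale, and passed at each time (adjusted p = 0.020, 0.015 and 0.017).

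**Figure D1:**
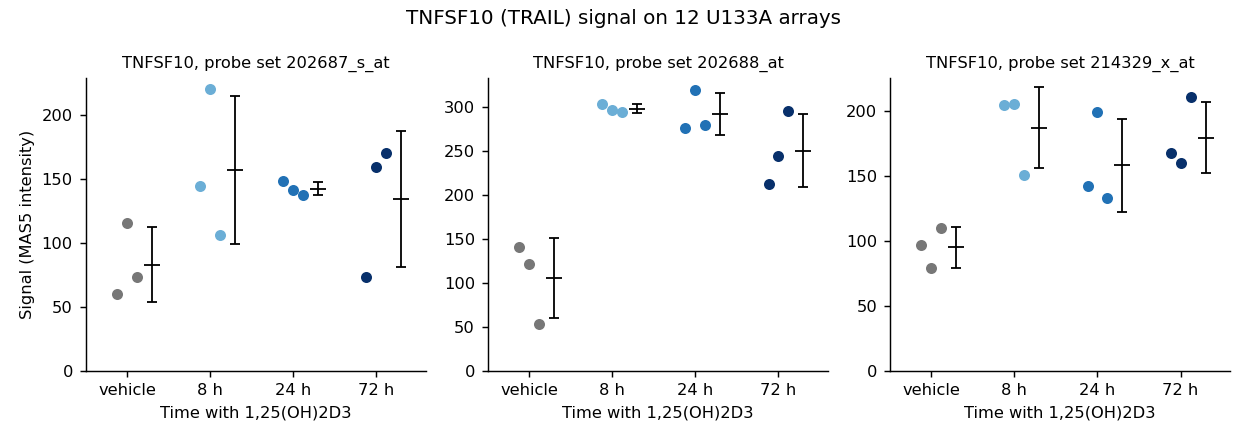
MAS5 signal of the 3 TNFSF10 probe sets on the 12 U133A arrays, by group (vehicle, then 8, 24 and 72 h with 1,25(OH)2D3). Points are arrays and bars are mean ± SD of 3. On 202688_at the 9 treated arrays lie between 213 and 320, all above the 3 vehicle arrays.

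FAS (gene ID 355), the receptor for FAS ligand, moved the other way. Its probe set 204780_s_at had signals of 411, 353 and 424 on the vehicle arrays, 244, 245 and 303 at 8 h, 168, 184 and 273 at 24 h, and 157, 201 and 132 at 72 h. Every treated array was below every vehicle array at each of the 3 times. On this probe set the group means stepped down from one time to the next, but neither later step passed. The log2 difference was -0.34 at 24 h against 8 h (95% interval -0.77 to 0.08, limma adjusted p = 0.74). At 72 h against 24 h it was -0.31 (95% interval -0.74 to 0.11, limma adjusted p = 0.58).
At 8 h the mean was 264 ± 33.7 against 396 ± 38.1 with vehicle (SD, n = 3 each), a log2 change of -0.56 that did not pass (95% interval -0.98 to -0.13, unadjusted p = 0.013, limma adjusted p = 0.41). At 24 h the mean was 208 ± 56.6 (SD, n = 3), and FAS fell by 0.90 on the log2 scale (SE 0.20, limma adjusted p = 0.015). At 72 h the mean was 163 ± 34.8 (SD, n = 3), and FAS fell by 1.22 on the log2 scale (SE 0.20, limma adjusted p = 0.0010), to 0.43 times the vehicle level.
The call at 24 h ended when vehicle replicate 1 (adjusted p = 0.069), vehicle replicate 3 (0.074), 24 h replicate 1 (0.083) or 24 h replicate 2 (0.056) was left out, with log2 changes still between -1.10 and -0.77 over the 12 omissions. At 72 h FAS passed whichever array was left out. The F test of any time gave an adjusted p of 0.0057. The difference between 72 and 8 h was -0.66 on the log2 scale (95% interval -1.08 to -0.23, unadjusted p = 0.0049), and it did not pass over all genes (limma adjusted p = 0.11).

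All 4 FAS probe sets passed the filter, and all 4 had negative log2 changes at each time. The group means stepped down at each time on 204780_s_at and 215719_x_at only. On 204781_s_at the mean was 209 at 8 h and 212 at 24 h. On 216252_x_at it was 155 at 24 h and 166 at 72 h. The arrays were entirely below the vehicle arrays for 2 of the 4 probe sets at 8 h, 3 at 24 h and 4 at 72 h. Among all genes tested, 13.5%, 20.5% and 24.3% had 3 arrays wholly above or below vehicle at these times. That share was not counted over single probe sets. At 72 h the log2 change was -1.22 for 204780_s_at, -1.20 for 204781_s_at, -1.18 for 215719_x_at and -0.62 for 216252_x_at. In the fit of 10188 single probe sets, 204780_s_at (adjusted p = 0.0013) and 215719_x_at (adjusted p = 0.0090) passed at 72 h, while 204781_s_at (adjusted p = 0.068) and 216252_x_at (adjusted p = 0.10) did not. Signals of 204781_s_at at 72 h were 173, 49.4 and 233, the widest spread of any FAS group. Probe sets whose names end in _x_at or _s_at can bind transcripts of other genes or several transcripts of the same gene, so the 4 are not independent measurements.

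**Figure D2:**
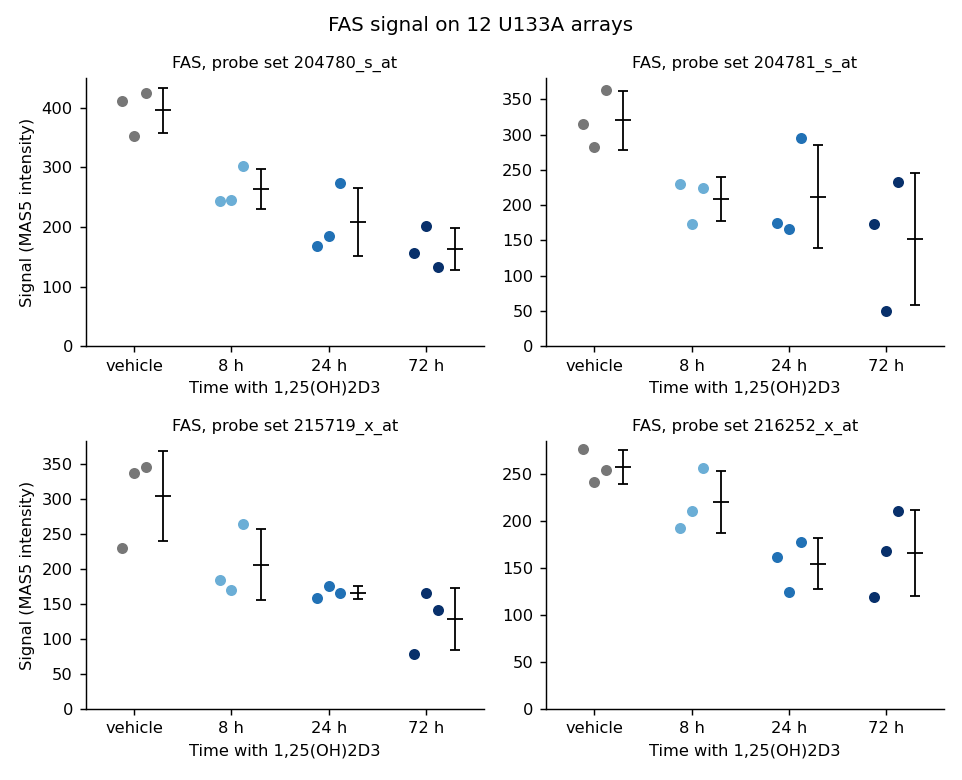
MAS5 signal of the 4 FAS probe sets on the 12 U133A arrays, by group (vehicle, then 8, 24 and 72 h with 1,25(OH)2D3). Points are arrays and bars are mean ± SD of 3. At 72 h the 3 arrays lie below the 3 vehicle arrays on all 4 probe sets, and on 204780_s_at they lie between 132 and 201.

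Among the other receptors, TNFRSF1A (gene ID 7132) had signals on probe set 207643_s_at of 853, 863 and 562 with vehicle, 878, 826 and 628 at 8 h, 750.3, 903 and 852 at 24 h, and 1334, 987 and 879 at 72 h. The 3 arrays at 72 h were above the 3 vehicle arrays, and the 8 and 24 h arrays overlapped them. The log2 change at 72 h was 0.49 (95% interval 0.10 to 0.87, unadjusted p = 0.017), and it did not pass over all genes (limma adjusted p = 0.14). That value rested in part on single arrays: it was 0.29 without vehicle replicate 3, the lowest vehicle array, and 0.32 without 72 h replicate 1, the highest array at 72 h.

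TNFRSF10B, which encodes the TRAIL receptor DR5, had signals on probe set 209295_at of 776, 965 and 737 with vehicle, 665, 1005 and 863 at 8 h, 746, 638 and 697 at 24 h, and 662, 797 and 504 at 72 h. The groups overlapped at every time. The log2 change at 72 h was -0.34 (95% interval -0.71 to 0.02, limma adjusted p = 0.28). Its probe sets differed in direction: at 8 h the log2 change was 0.42 for 210405_x_at, 0.02 for 209295_at and -0.15 for 209294_x_at, none of which passed (lowest adjusted p = 0.905). At 72 h the arrays of 209294_x_at, at 208, 172 and 185, were all below the vehicle arrays, at 212, 264 and 278. Its log2 change of -0.38 had an unadjusted p of 0.046 and did not pass (limma adjusted p = 0.24).

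TNFRSF21, the receptor DR6, had signals on probe set 218856_at of 1018, 1102 and 1026 with vehicle, 988, 455 and 1034 at 8 h, 1142, 885 and 1005 at 24 h, and 1001, 779 and 1224 at 72 h. The groups overlapped at every time, and 8 h replicate 2 was the lowest of the 12 arrays. The log2 change at 8 h was -0.43 (95% interval -0.93 to 0.08, limma adjusted p = 0.90), and without 8 h replicate 2 it was -0.05. Its other probe set, 214581_x_at, had positive differences of 0.12 to 0.18 at the 3 times.

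TRADD (gene ID 8717), the adaptor of TNFRSF1A, had signals on probe set 1729_at of 334, 322 and 365 with vehicle, 324, 406 and 371 at 8 h, 427, 451 and 398 at 24 h, and 619, 502 and 445 at 72 h. The 24 and 72 h arrays were above all vehicle arrays, and the 8 h arrays overlapped them. At 72 h the mean was 522 ± 88.5 against 341 ± 21.9 with vehicle (SD, n = 3 each), and TRADD rose by 0.58 on the log2 scale (SE 0.14, limma adjusted p = 0.018), or 1.50-fold. At 24 h the mean was 425 ± 26.8 (SD, n = 3), with a log2 change of 0.31 that did not pass (limma adjusted p = 0.32), and at 8 h the change was 0.10 (95% interval -0.20 to 0.40).
The call at 72 h ended when vehicle replicate 1 (adjusted p = 0.064), vehicle replicate 2 (0.069) or 72 h replicate 1 (0.084) was left out. It also ended when the gene's 3 probe sets were averaged, which gave a log2 change of 0.33 (adjusted p = 0.32). Probe set 205641_s_at had 655, 348 and 362 at 72 h against 308, 355 and 292 with vehicle, groups that overlapped, with a log2 change of 0.44 (adjusted p = 0.28). The third probe set, 213443_at, had a mean signal of 16.3 or less in every group. The F test of any time did not pass for TRADD (adjusted p = 0.066).

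FADD, CASP8 and CFLAR, which form the core of the receptor complex, did not pass at any time. FADD on 202535_at had 857, 556 and 818 at 72 h against 589.9, 662 and 564 with vehicle, a log2 change of 0.27 (95% interval -0.07 to 0.61, limma adjusted p = 0.38). CASP8 on 213373_s_at had 402, 349 and 292 at 72 h against 468, 345 and 407 with vehicle, a log2 change of -0.22 (95% interval -0.53 to 0.09, limma adjusted p = 0.44). The groups overlapped for both genes at every time.
CFLAR was covered by 11 probe sets, 8 of them of the _x_at kind, and 6 passed the filter. Its brightest, 209939_x_at, had 358, 271 and 338 at 24 h against 376, 365 and 437 with vehicle, 3 arrays below the other 3, with a log2 change of -0.28 (95% interval -0.68 to 0.13, limma adjusted p = 0.58). Of the 11 probe sets, 6 had a negative difference from vehicle at 8 h, 10 at 24 h and 9 at 72 h, and 0 of those tested passed with limma. At an unadjusted p under 0.05 there was 1, 211862_x_at at 72 h (log2 change -0.41, unadjusted p = 0.048), a time at which 19.8% of all probe sets were under that p. CFLAR (chr2:201116164-201176687) and CASP8 (chr2:201233463-201287711) lie close to each other on the same chromosome.

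**Figure D3:**
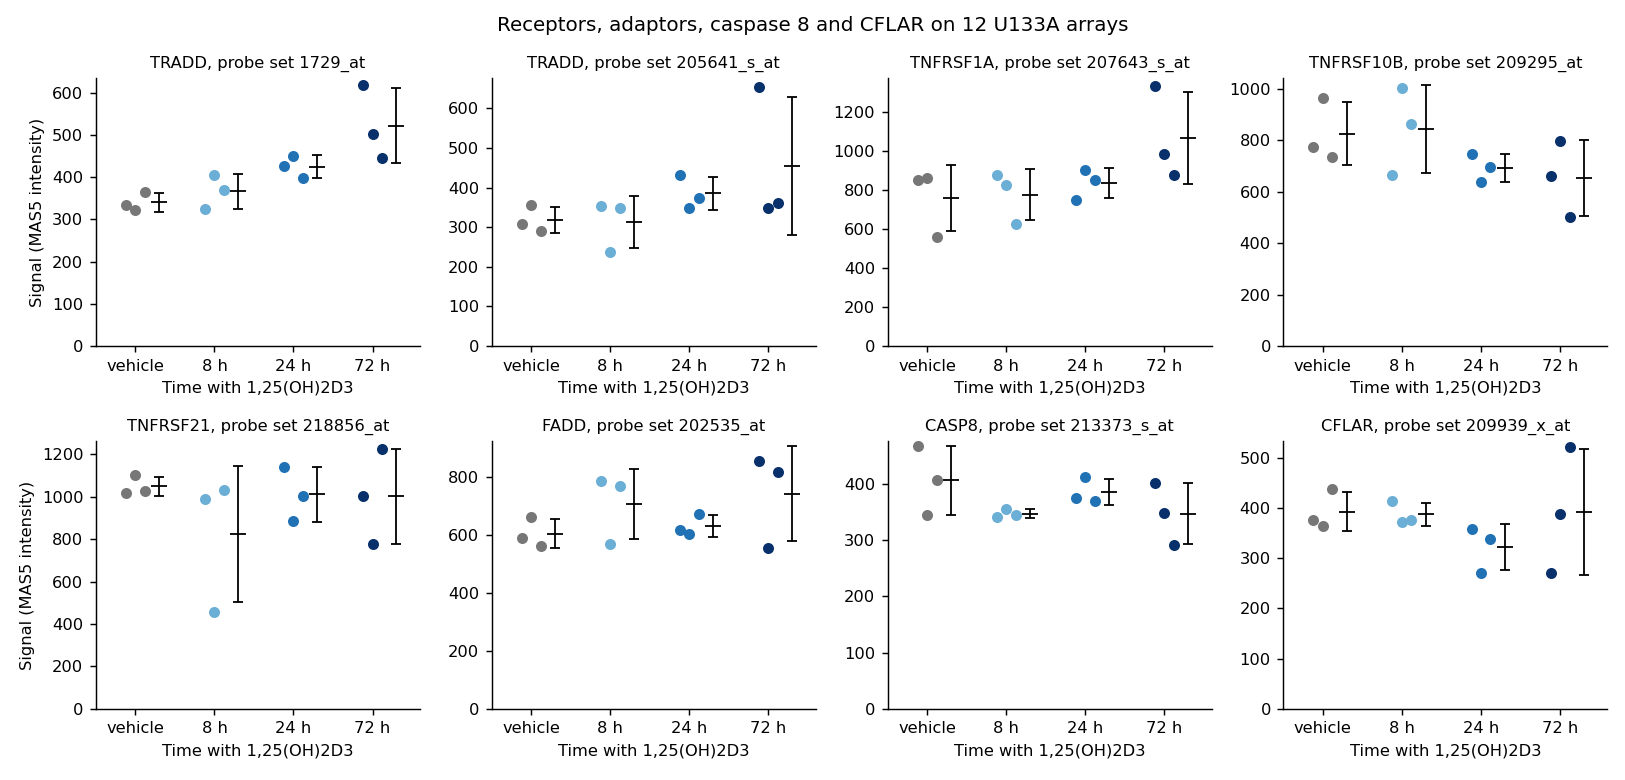
MAS5 signal of 8 probe sets of TRADD, TNFRSF1A, TNFRSF10B, TNFRSF21, FADD, CASP8 and CFLAR on the 12 U133A arrays, by group (vehicle, then 8, 24 and 72 h with 1,25(OH)2D3). Points are arrays and bars are mean ± SD of 3. TRADD on 1729_at and TNFRSF1A at 72 h lie above all vehicle arrays, and the 8 h replicate 2 of TNFRSF21 lies at 455.

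Counted by overlap, 2 of the 9 members had 3 treated arrays wholly above or below the vehicle arrays at 8 h (TNFSF10 and FAS), where 13.5% of all genes tested did. At 24 h they were 4 (TNFSF10 and TRADD above, FAS and CFLAR below), where 20.5% of all genes did, and at 72 h they were 4 (TNFSF10, TRADD and TNFRSF1A above, FAS below), where 24.3% did. In the fit of single probe sets, 1 of the 21 tested member probe sets passed at 8 h, 2 at 24 h and 4 at 72 h, where 0.648%, 3.51% and 6.43% of all probe sets did. The F test of any time called 2 of 9 members, TNFSF10 and FAS, against 5.21% of all genes. No member passed between times. The background was 0.641% of all genes for 24 h against 8 h, 0.153% for 72 h against 24 h and 2.52% for 72 h against 8 h. With limma and an unadjusted p under 0.05, 0 members were counted for 24 h against 8 h, where 8.26% of all genes were, and 0 for 72 h against 24 h, where 11.7% were. For 72 h against 8 h there were 3 members, where 14.1% of all genes were counted, the 3 being FAS, TRADD (log2 difference 0.48, adjusted p = 0.092) and TNFRSF1A (0.44, adjusted p = 0.27).

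**Figure D4:**
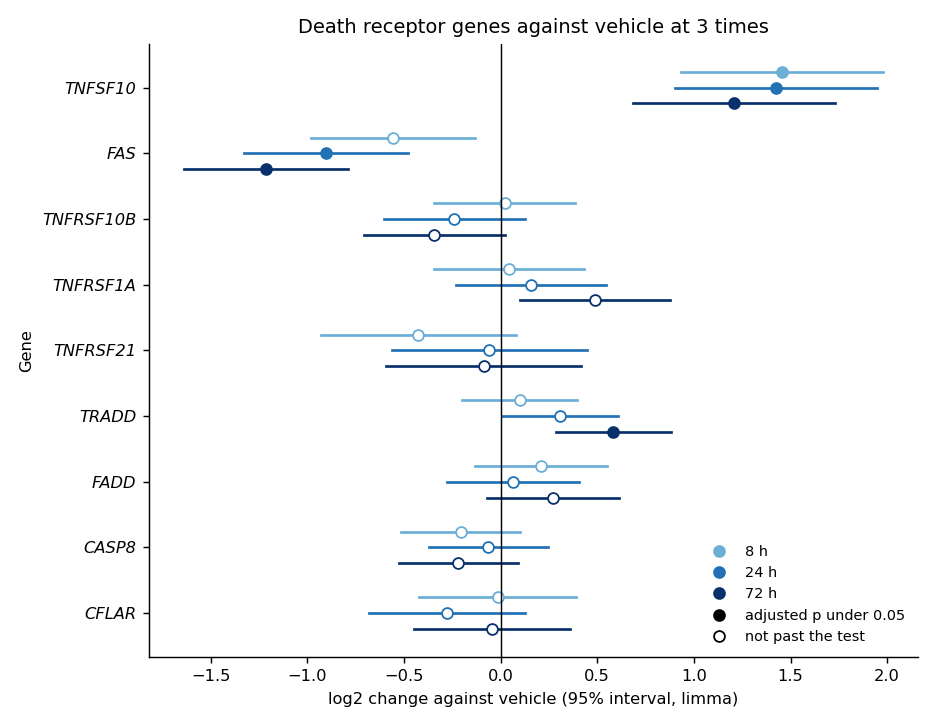
Log2 change of the 9 genes against vehicle at 8, 24 and 72 h on the U133A arrays. Points are limma estimates from 3 arrays a group, lines are 95% intervals, and filled points passed at an adjusted p under 0.05. TNFSF10 is filled on the right at all 3 times, FAS on the left at 24 and 72 h, and TRADD on the right at 72 h.

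The U95 arrays measured the same genes once per time, so their ratios carry no error and no test. TNFSF10 on probe set 1715_at had 696 at 8 h, 578 at 24 h and 608 at 72 h against 224 with vehicle. These are log2 ratios of 1.58, 1.32 and 1.39 on signal + 13.9, above the 95th percentile of 4937 genes at each time (0.46 at 8 h, 0.57 at 24 h and 0.61 at 72 h).
FAS had 6 probe sets, and 3 of them were below the vehicle array at 8 h, 6 at 24 h and 6 at 72 h. Their median log2 ratio was -0.13 at 8 h, -0.73 at 24 h and -0.75 at 72 h, where that of the 4937 genes was -0.02, -0.03 and -0.06. The share of all U95 probe sets below the vehicle array was not counted. The 6 FAS probe sets share the same arrays and are not independent measurements. All 6 were dim, with signals of 26.3 to 113 on the vehicle array, and the highest-signal pair, 37643_at and 1440_s_at, had log2 ratios of -0.91 and -0.52 at 72 h.
TRADD on probe set 1729_at, which both array types carry under that name, had 560.2 at 8 h, 552 at 24 h and 538 at 72 h against 260.3 with vehicle, log2 ratios of 1.07, 1.05 and 1.01. The U133A arrays gave, for the probe set of that name, 0.10 at 8 h, 0.31 at 24 h and 0.58 at 72 h, so the single U95 arrays gave a larger difference, present from 8 h. The cause was not tested. The other U95 TRADD probe set, 33166_at, had signals of 5.91 with vehicle and 5.83, 5.10 and 11.2 at 8, 24 and 72 h. All of these are under the 13.9 added before log2, and its log2 ratios were -0.0060, -0.06 and 0.34.

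For the remaining members, the log2 ratio of TNFRSF10B was -0.12 at 8 h, -0.59 at 24 h and -0.15 at 72 h. For TNFRSF1A it lay between 0.08 and 0.20 over the 3 times. TNFRSF21 (-0.09 to -0.01) and FADD (0.01 to 0.02) were close to 0. CASP8 and CFLAR had 3 probe sets each, all 6 below the single vehicle array at 24 and 72 h. That share was not counted over all U95 probe sets. The median log2 ratio of 4937 genes was itself negative, -0.03 at 24 h and -0.06 at 72 h. Over the 3 CASP8 probe sets the log2 ratio ran from -0.78 to 0.17 at 8 h, -0.61 to -0.13 at 24 h and -0.39 to -0.05 at 72 h. The brightest of them, 33774_at (816 on the vehicle array), had 0.17, -0.13 and -0.05 at these times. The others, 31491_s_at and 33775_s_at, were dim (113 and 104 on the vehicle array). Over those of CFLAR the log2 ratio ran from -0.37 to 0.12 at 8 h, -0.60 to -0.31 at 24 h and -0.65 to -0.14 at 72 h. The lowest value at each time was on the dimmest, 32746_at (113 on the vehicle array). The brightest, 1867_at (266), had 0.12, -0.47 and -0.14.

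**Figure D5:**
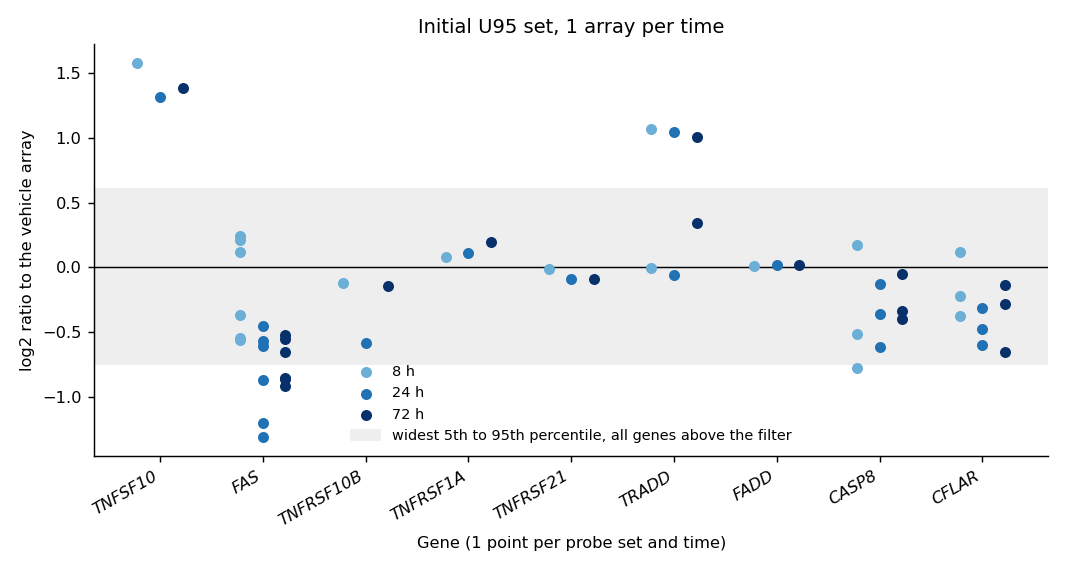
Log2 ratio to the vehicle array for each U95 probe set of the 9 genes at 8, 24 and 72 h, 1 array per time. The grey band runs from the lowest 5th to the highest 95th percentile of 4937 genes over the 3 times (-0.74 to 0.61). TNFSF10 lies above the band at each time, as does 1 TRADD probe set, and several FAS probe sets lie below it at 24 and 72 h. CASP8 probe set 31491_s_at lies just below it at 8 h, at -0.78. The FAS probe sets and 31491_s_at were dim, with mean signals above only 11.3 to 35.7% of all U95 probe sets. The band of brighter genes is therefore not a like background for them.

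Other genes of the pathway were counted in 5 lists of ligands, receptors, adaptors and executioners. Among ligands, 14 of 17 were on the array and 3 were tested (TNF, TNFSF9 and TNFSF13), and 0 passed at any time. Among other death and decoy receptors, which include the TRAIL decoys, 7 of 8 were on the array and 2 were tested (TNFRSF25 and EDAR), and 0 passed. The decoy receptor TNFRSF10D, under the filter and not tested, had signals on 210654_at of 58.4, 19.8 and 59.7 with vehicle, 97.0, 75.9 and 89.8 at 8 h, 107, 199 and 97.3 at 24 h, and 107, 115 and 207 at 72 h. Every treated array was above every vehicle array. TNFRSF10D was chosen after its values were seen. Of the genes above the filter, 13.5% were wholly above or below vehicle at 8 h, 20.5% at 24 h and 24.3% at 72 h. That share was not counted for genes under the filter. TNFRSF10C and TNFRSF11B of the same list, also under the filter, overlapped the vehicle arrays at each time. Among receptors without a death domain, 12 of 14 were on the array and 3 were tested (LTBR, CD40 and TNFRSF12A), and 0 passed. Among executioners, that is caspases, mitochondrial death proteins and their inhibitors, 12 of 14 were on the array, 10 were tested and 0 passed at any time. These counts are from limma, and at an unadjusted p under 0.05 the 4 lists held TNF at 24 h, LTBR at 24 and 72 h, TNFRSF12A at 72 h, BID at 72 h and CASP9 at 8 and 72 h, beside the shares of all genes under that p given above. The adaptors and regulators had 17 of 22 genes on the array and 15 tested. Of these, 1 was higher at each time, and 1 was lower at 24 h, beside the background shares given above. At an unadjusted p under 0.05 this list also held TRAF5 at 8 h (log2 change -0.47) and TRAF3 at 72 h (-0.35), adaptors of tumour necrosis factor receptors, neither of which passed (adjusted p = 0.59 and 0.24). The medians of this list were -0.05 at 8 h, -0.07 at 24 h and -0.10 at 72 h on the log2 scale.

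PEA15, a death effector domain protein that binds FADD and caspase 8, had signals on 200788_s_at of 4347, 4825 and 4434 with vehicle, 6056, 6438 and 6549 at 8 h, 7482, 7496 and 7804 at 24 h, and 5611, 6871 and 6455 at 72 h. Every treated array was above every vehicle array. It rose by 0.48 at 8 h (adjusted p = 0.0078), 0.74 at 24 h (adjusted p = 5.0e-05) and 0.47 at 72 h (adjusted p = 0.0021) on the log2 scale, and the call at 8 h ended without vehicle replicate 3 (adjusted p = 0.053). Its other probe set, 200787_s_at, changed by 0.28 at 8 h, 0.54 at 24 h and 0.57 at 72 h. In the fit of single probe sets it passed at 24 and 72 h but not at 8 h (limma adjusted p = 0.29). The U95 log2 ratio of PEA15 was -0.11 at 8 h, the opposite direction. At 24 and 72 h it was 0.09 and 0.20, smaller than on the U133A arrays.
TNFAIP3, which encodes the ubiquitin-editing inhibitor A20 of NF-kappaB signalling, had 725, 829 and 936 on 202644_s_at at 24 h against 1282, 1203 and 1517 with vehicle. It fell by 0.67 on the log2 scale at 24 h (adjusted p = 0.032). That call ended with median centring (adjusted p = 0.090), with no filter (0.066) and without vehicle replicate 1 (0.079), vehicle replicate 3 (0.15), 24 h replicate 1 (0.14) or 24 h replicate 2 (0.070), and the U95 log2 ratio at 24 h was 0.24.

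The genes whose log2 values followed those of TNFSF10 most closely over the 12 arrays were RAPGEF3 (Pearson r = 0.93), GLDC (0.92), WT1 (0.90), ARIH1 (0.89) and TRAF4 (0.89), out of 7177 other genes. For FAS they were FAM107A (r = 0.94), RRM1 (0.94), OSBPL11 (0.92), AKAP1 (0.92) and UNG (0.92). These correlations describe arrays that fall into 4 treatment groups and share 1 scaling, and any gene that changed with treatment contributes to such a list.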

How the data were processed

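The deposited values are MAS5 intensity signals per probe set, made by the authors on a linear scale. MAS5 is named, without a version, per the submitters' processing notes, and the genome build is not given in the sources used here. The 2% trimmed mean was 500.2 on each U133A array, so the values were used as deposited. Probe sets were assigned with the platform annotation (19071 of 22283 had 1 gene, 1043 several, 2169 none listed), and coordinates and upstream sequences came from RefSeq on GRCh38.p14. No upstream sequence is shown for TRADD.

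Tables were handled in R 4.3.3 (package data.table at version 1.17.8). Values were transformed as log2(value + 15.833), the 10th percentile of all U133A values (13.87 for U95). For each gene the probe set with the highest mean was used, and genes under the 40th percentile of the mean were left out. A model with 1 term per group and no replicate block used limma 3.58.1 (lmFit, then eBayes with a mean trend) on the 12 arrays together, with Benjamini-Hochberg adjustment over 7178 genes, or over 10188 probe sets in a separate fit. The script was tested on simulated data. Only 3 arrays a group, from 3 independent experiments, limit the precision. The p-values rest on the spread between arrays within a group, pooled over the 4 groups and moderated across genes by limma. U95 ratios have no test.

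Array deviations were compared by replicate number: all 18 were positive (0.0519 to 0.263), and they exceeded 0.1 in 1, 1 and 2 of 3 pairs for 8, 24 and 72 h against vehicle, 2 of 3 for 72 h against 8 h, and 3 of 3 for 24 h against 8 h and 72 h against 24 h. Only in those last comparisons did every pair exceed 0.1, and 0 members were called there with or without the block. The level of 0.1 was a choice, and the main fit has no replicate term in any comparison. Alternatives were quantile normalization, median centring, other pseudocounts and filters, the mean of probe sets, a replicate block, the groups compared alone, and leaving out each array.

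The members and all lists were chosen with earlier results of these data known. Genes named are all members, the genes of each pathway list past the threshold, the 5 genes most correlated with the 2 members of lowest F test p, CYP24A1, GADD45A and the cell type markers. Genes of the other pathway lists are named outside this rule, and TRAF5, TNFRSF10D and those at an unadjusted p were chosen after their values were seen.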

Additional observations from a re-analysis of the deposited data

Results flagged for a closer look

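In the comparison of 72 h against 8 h, TRAF5, an adaptor of tumour necrosis factor receptors, stood out because its response differed between the times by a test of that difference. The log2 difference was 0.80 (limma adjusted p = 0.039). Signals on 204352_at were 192, 203 and 294 at 72 h against 113, 122 and 135 at 8 h. The vehicle arrays, at 157, 193 and 182, were above the 8 h arrays and overlapped those at 72 h. The gene was chosen after its values were seen. It passed under 8 of 20 alternatives and in 2 of the 12 that leave out 1 array, with adjusted p up to 0.15. On the U95 arrays, 1 per time and with no test, both of its probe sets were lower at 72 h than at 8 h, the opposite direction. Probe set 1328_at had 2.63 at 72 h against 21.2 at 8 h, and the lower of these is under the 13.87 added before log2. Probe set 35238_at had 263 against 292. Its log2 ratios to vehicle were 0.06 at 72 h and 0.20 at 8 h, both inside the 5th to 95th percentile range of 4937 genes (-0.74 to 0.61 and -0.55 to 0.46).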

How the results depend on the processing

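Requiring a mean above the 60th percentile left 5 members tested, without TNFSF10, FAS, CASP8 and CFLAR, and gave 0 members called at 8 h, 0 at 24 h, 1 at 72 h (TRADD) and 0 in the F test. Leaving out 1 array at a time gave 1 member at 8 h, 1 to 2 at 24 h, 2 to 3 at 72 h and 2 to 3 in the F test. By probe set the range at 24 h was 1 to 3. Among adaptors and regulators it was 0 to 1 at 8 h and 1 to 2 at 24 h, among executioners 0 to 1 at 72 h (CASP9, without 72 h replicate 1), and among receptors without a death domain 0 to 1 at 72 h (TNFRSF12A, without 24 h replicate 2 or 72 h replicate 2). With the replicate number as a block, 1 member was called at 8 h, 2 at 24 h and 3 at 72 h, the same counts as without pairing. TNFSF10 passed in 20 of 20 alternatives at each time, with log2 changes of 1.04 to 1.68 at 8 h, 0.93 to 1.65 at 24 h and 0.85 to 1.43 at 72 h. FAS passed in 20 of 20 at 72 h and 16 of 20 at 24 h, and TRADD in 17 of 21 at 72 h. Over 67 changes of single genes and 1382 alternative values, 39 had the opposite sign, in 20 changes, none of which passed the test under any setting. The 9 member probe sets under the 40th percentile filter were left out of the tests of single probe sets by that choice. The leave-one-out values of probe sets and pathway lists, and all values for TRAF5, were chosen after seeing the data.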
